A study of Mus musculus with 8 samples.

Results

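The release of islet hormones depends on a machinery that docks secretory granules at the plasma membrane and fuses them when calcium rises, and 9 of its genes were followed here in mouse islet cells exposed to inflammatory cytokines. The genes were Snap25, Stx1a, Vamp2, Syt7, Syt4, Syt13, Rab3a, Rab27a and Cplx2, found by their symbol among the 30406 genes that all gene lists of the series share. Fusion is driven by SNARE proteins, which sit on the granule and on the plasma membrane and zip into a common bundle. Many synaptotagmins sense calcium, Rab GTPases bring granules to the membrane through their effectors, and complexins clamp and promote the assembled SNAREs. In β-cells this machinery releases insulin, in α-cells glucagon and in δ-cells somatostatin.

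Islets of male C57BL6/J mice, 12 to 16 weeks old, were cultured for 18 h in CMRL medium with 5.5 mM glucose and analysed by droplet single-cell RNA-seq. They were left untreated, given IFN-γ at 150 U/mL together with IL-1β at 10 U/mL (cytokines), given the same cytokines and 2 mM NMMA, an inhibitor of nitric oxide synthases, or given 2 mM NMMA alone. Each condition was measured in 2 libraries, and the libraries of a replicate were made from 1 pool of islets from 10 mice, so that no value belongs to a single animal. In tests between conditions of a class, p-values measure the spread between the 2 replicates, which differ in the pool and in the gene list used for counting. Where the library or the pool is a block in the fit, they measure the spread left between sums after its differences are taken out. No condition carries a genetic change. In droplet data a unique molecular identifier (UMI) counts 1 captured RNA molecule near its 3′ end, and values are given as CPM, the UMIs of a gene relative to all UMIs of the sum, scaled between libraries by the trimmed mean of M-values (TMM), so they serve to compare a gene between samples and not 1 gene with another.

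The 8 libraries held between 26549922 and 50731370 UMIs. Of 17426 barcodes 10876 were kept, of which 6351 were grouped as β-cells, 681 as α-cells and 331 as δ-cells from fixed marker genes. A library held 451 to 1663 β-cells, 53 to 106 α-cells and 6 to 88 δ-cells. Insulin transcripts (Ins1 and Ins2) made up 337584 to 429530 CPM of total UMIs in β-cells, but also 10510 to 60350 CPM in α-cells and 1731 to 30349 CPM in δ-cells. Gcg, the glucagon gene, was at 199 and 3785 CPM in the 2 β-cell sums with cytokines, against 278 and 367 CPM untreated. The part of RNA from other endocrine cells in the β-cell values was not tested. In δ-cells Gcg was at 2257 to 44118 CPM. In the cytokine library of 12 δ-cells Gcg was at 37730 CPM, above Sst, the somatostatin gene, at 27633 CPM. PP-cells make pancreatic polypeptide, and 4 of their markers were summed, among them Pyy, which also served as a δ-cell marker. In δ-cells they summed to 98162 and 128083 CPM untreated, and to 58000 (6 cells) and 27519 CPM (12 cells) with cytokines. In α-cells the sums were 29627 to 89201 CPM, highest in the second library with cytokines and NMMA. The part of RNA from β-cells in the α- and δ-cell values of the exocytosis genes was not tested. Nor was that of RNA from α-cells in the δ-cell values, or from PP-cells in either. Ptprc, a marker of immune cells, was at 0 in all α- and δ-cell sums. The 8 macrophage markers, Ptprc among them, summed to 34.5 to 55.1 CPM in α-cells and 63.0 to 165 CPM in δ-cells. Pecam1, an endothelial marker, reached 9.93 CPM in α-cells and 19.7 CPM in δ-cells, both with cytokines and NMMA. The part of such RNA in the values of the exocytosis genes was not tested. Nos2, which encodes the inducible nitric oxide synthase, lay between 0 and 0.0505 CPM in β-cells without cytokines and between 145 and 485 CPM with them, with or without NMMA.

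The δ-cells with cytokines were few and held cells that went against their class. One cytokine library had only 6 δ-cells and was left out of the tests, which require 10, and the other had 12. Of these 12 cells, 2 had no UMI of Sst, the somatostatin gene that defines the class. Those 2 cells carried 41 and 42 UMIs of Snap25, where the other 10 had 0 to 2, and were led by Vip, Npy, Sncg and Stmn2, with 310 UMIs of Vip, 200 of Npy and 102 of Stmn2 between them and none of these genes in the other 10 cells. The tests of δ-cells with cytokines are therefore given with and without the cells that lack Sst, and since 1 library stands for that condition, they assume that it varies as the libraries of the other conditions do.

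All 9 genes passed the filter on low counts in each class. Positions, given for 8 of them, are GRCm38 coordinates from the GENCODE M21 annotation. The SNAREs of the plasma membrane were Snap25 (ENSMUSG00000027273, chr2:136713453-136782428, plus strand) and Stx1a (ENSMUSG00000007207, chr5:135023482-135051100, plus strand), which encodes syntaxin 1A. Vamp2 (ENSMUSG00000020894, chr11:69088490-69092384, plus strand) encodes the SNARE of the granule. Syt7 (ENSMUSG00000024743, chr19:10389090-10453180, plus strand) encodes a high-affinity calcium sensor of β-cell exocytosis. Syt4 (ENSMUSG00000024261) and Syt13 (ENSMUSG00000027220, chr2:92915098-92956058, plus strand) encode atypical synaptotagmins, of which synaptotagmin 13 lacks the residues that bind calcium. Rab3a (ENSMUSG00000031840, chr8:70754679-70758677, plus strand) and Rab27a (ENSMUSG00000032202, chr9:73044854-73097629, plus strand) encode the granule-bound GTPases. Cplx2 (ENSMUSG00000025867, chr13:54371349-54383917, plus strand) encodes complexin 2. In the annotation Gm14053, Gm26859, Gm26658 and Mpv17l2 overlap Snap25, Syt7, Syt4 and Rab3a on the other strand. AC124169.1 and Gm27186 overlap Syt7 and Rab27a on the same strand. The use of strand in counting is not given in the sources used here, and the effect of these overlaps on the counts was not tested.

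RefSeq promoter windows of 300 bases (GRCm38.p6, from 250 bases before to 50 after a start) were at hand for Stx1a, Rab3a, Rab27a and Cplx2. Those of Stx1a, which rose in β-cells with cytokines, and of Rab3a, which fell, are printed to set the promoters of genes that moved in opposite directions side by side, 5′ to 3′, with each TGACG or its reverse complement in capitals. The Stx1a window is chr5:135023232-135023531 and the Rab3a window chr8:70754453-70754752, both on the plus strand.
Stx1a: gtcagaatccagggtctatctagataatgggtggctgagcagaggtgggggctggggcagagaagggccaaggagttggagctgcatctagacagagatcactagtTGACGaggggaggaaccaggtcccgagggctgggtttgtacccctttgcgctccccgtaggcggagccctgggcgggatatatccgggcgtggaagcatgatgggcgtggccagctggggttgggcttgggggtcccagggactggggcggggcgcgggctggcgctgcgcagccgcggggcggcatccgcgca
Rab3a: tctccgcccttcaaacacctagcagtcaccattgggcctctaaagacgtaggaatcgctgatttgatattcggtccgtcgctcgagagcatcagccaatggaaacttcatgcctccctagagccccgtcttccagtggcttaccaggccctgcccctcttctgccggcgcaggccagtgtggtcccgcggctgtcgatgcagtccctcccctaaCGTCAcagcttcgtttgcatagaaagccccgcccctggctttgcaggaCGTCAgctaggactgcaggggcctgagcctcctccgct
The Stx1a window holds TGACG once, with its first base at -144 from the start, and the Rab3a window holds it at -36 and 12. Of 32851 promoter windows of this length 20.8% hold TGACG on either strand. The gamma-activated site TTCNNNGAA occurs in 8.30% of the windows and the interferon-stimulated response element core in 3.44%. The full cAMP response element TGACGTCA, which contains TGACG, occurs in 1.79%. None of these 3 longer motifs was in any of the 6 windows of the 4 genes. Rab3a has another window, which holds no TGACG. The E-box CANNTG, the last motif searched, occurs in 72.3% of all windows, once in that of Stx1a and not in the printed window of Rab3a. These matches describe letters in a window only.

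To ask how cytokines altered the exocytosis genes in β-cells, UMIs of the β-cells of each library were summed and compared between cytokines and untreated with edgeR's quasi-likelihood test, adjusted by Benjamini-Hochberg over 12778 genes. Rab3a, Rab27a and Cplx2 fell about 3-fold in both replicates, Syt13 fell by less, Vamp2 fell slightly, and Stx1a rose from a low level. Snap25, Syt7 and Syt4 did not pass the test. In all, 5 of the 9 genes fell and 1 rose, where 22.4% of all genes tested were lower, 23.7% higher and 46.1% called in either direction. The median log2 change of the 9 was -0.41, beside 0.00 over all genes.

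Rab3a, whose GTPase marks granules and binds effectors at the membrane, was at 84.9 and 74.3 CPM in the untreated libraries and at 24.9 and 25.6 CPM with cytokines. Both cytokine libraries lay far below both untreated ones, a fall of 3.15-fold (log2 change -1.66 ± 0.13 SE, adjusted p = 2.44e-05). Rab27a, which recruits granule effectors such as granuphilin, was at 86.4 and 86.5 CPM untreated and at 29.8 and 27.3 CPM with cytokines. The groups did not overlap, and Rab27a fell 3.03-fold (-1.60 ± 0.14, adjusted p = 5.04e-05). Cplx2 was at 96.5 and 102 CPM untreated and at 30.8 and 38.5 CPM with cytokines. It fell 2.87-fold (-1.52 ± 0.17, adjusted p = 0.00019), again without overlap. Syt13 was the most moderate of the 4 clear decreases, with 313 and 305 CPM untreated and 164 and 154 CPM with cytokines. It fell 1.94-fold (-0.95 ± 0.13, adjusted p = 0.000509). The call of each of these 4 genes was kept when any single library was left out and under every other setting tried.

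Among the SNAREs the changes were smaller and of both signs. Vamp2 was at 79.8 and 83.8 CPM untreated and at 60.8 and 62.6 CPM with cytokines. It fell 1.33-fold (-0.41 ± 0.12, adjusted p = 0.0184) without overlap of the groups, and the call was lost when either untreated or either cytokine library was left out (adjusted p 0.0557 to 0.0912). Stx1a was at 3.09 and 3.70 CPM untreated, from 111 and 61 UMIs, and at 6.64 and 5.25 CPM with cytokines, from 173 and 78 UMIs. It rose 1.77-fold (0.83 ± 0.22, adjusted p = 0.0125), with both cytokine libraries above both untreated ones. The call was lost without the first untreated or the first cytokine library (adjusted p 0.0914 to 0.0992), and also when libraries were scaled by the UMIs of genes other than hormones (0.46, adjusted p = 0.0893). Snap25 was at 105 and 94.6 CPM untreated and at 94.2 and 75.1 CPM with cytokines. Each cytokine library lay below its untreated partner, by a log2 change of -0.24 ± 0.14 (adjusted p = 0.195), which passed the threshold when the islet pool was a block in the fit (adjusted p = 0.0358) and when scaling left the hormone genes out (-0.60, adjusted p = 0.00525).

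The synaptotagmins parted from each other. Unlike Syt13, the calcium sensor gene Syt7 was at 131 and 126 CPM untreated and at 146 and 128 CPM with cytokines. The groups overlapped, and the log2 change of 0.09 ± 0.14 did not pass the test (adjusted p = 0.636). Syt4 was at 162 and 197 CPM untreated and at 189 and 215 CPM with cytokines, with overlapping groups and a log2 change of 0.17 ± 0.17 (adjusted p = 0.427). Under scaling by total UMIs the median change of all genes in this comparison moved to -0.22, and without hormone genes to -0.36, and Rab3a, Rab27a, Cplx2, Syt13 and Vamp2 remained called lower under both.

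**Figure D1:**
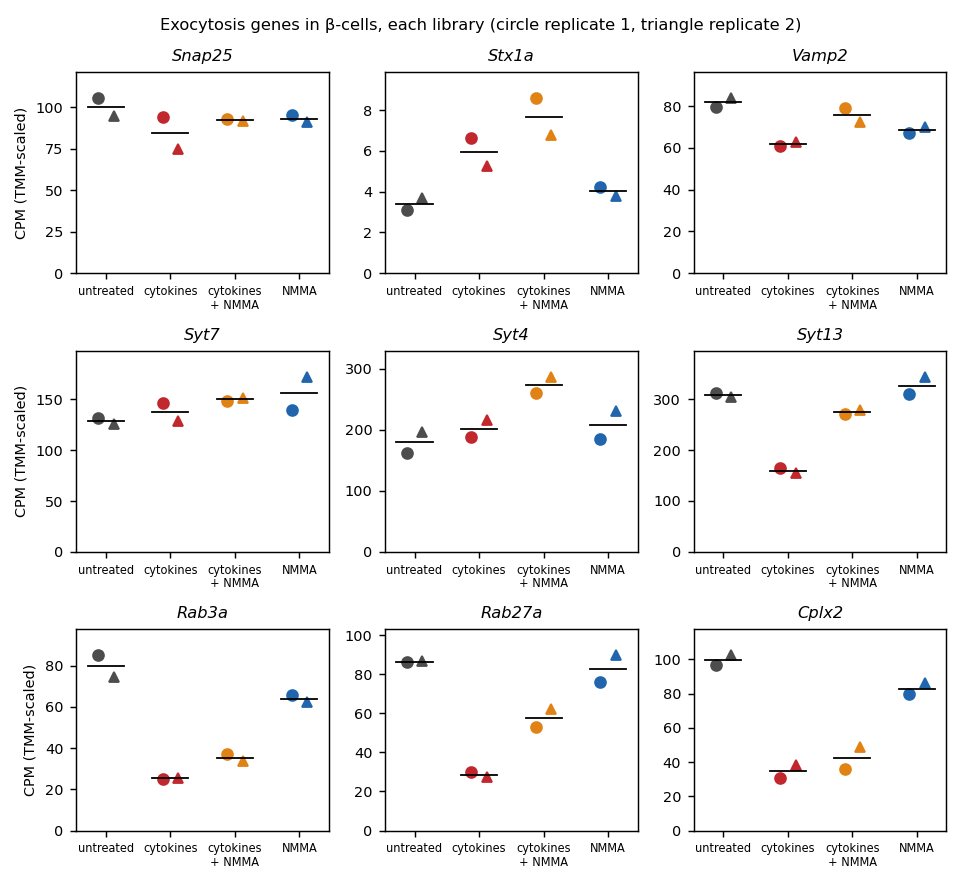
Levels of the 9 exocytosis genes in β-cells, as TMM-scaled CPM on a linear axis from 0, with a circle for replicate 1, a triangle for replicate 2 and a line at the mean of each condition. Rab3a, Rab27a, Cplx2 and Syt13 lay lower in both cytokine libraries than in both untreated ones, and Rab3a and Cplx2 stayed low with NMMA while Syt13 was at 271 and 279 CPM.

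NMMA was added to the cytokines to block nitric oxide formation. In β-cells with cytokines and NMMA, Rab3a, Rab27a and Cplx2 were still lower than untreated, Stx1a and Syt4 were higher, and Syt13 did not pass the test. That is 3 of 9 lower, where 9.74% of all genes were lower, and 2 higher, where 12.9% were higher, with a median log2 change of -0.12 in the 9 and 0.00 over all genes. The share called in either direction was 22.6%. This comparison shares its untreated libraries with the one before, and the comparison with cytokines alone shares the cytokine libraries.

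Rab3a was at 37.3 and 33.5 CPM with cytokines and NMMA. This was between the untreated and the cytokine levels, without overlap with either: 2.25-fold below untreated (-1.17 ± 0.13, adjusted p = 0.000225) and 1.40-fold above cytokines alone (0.49 ± 0.13, adjusted p = 0.0277). The call against cytokines alone was lost without any 1 of the 4 libraries compared (adjusted p 0.0692 to 0.161). Rab27a was at 52.9 and 62.2 CPM. It lay below untreated (-0.59 ± 0.14, adjusted p = 0.0143) and 2.01-fold above cytokines alone (1.01 ± 0.14, adjusted p = 0.00381). The call against untreated was lost without the first untreated library or the first library with cytokines and NMMA (adjusted p 0.0774 to 0.114).

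Syt13 was at 271 and 279 CPM with cytokines and NMMA, close to the untreated libraries. It was 1.72-fold above cytokines alone (0.79 ± 0.13, adjusted p = 0.00633), and its difference from untreated was -0.17 ± 0.13 (adjusted p = 0.405). Cplx2 was at 36.2 and 48.9 CPM, so its range ran from within the cytokine libraries to above them. It lay 2.34-fold below untreated (-1.23 ± 0.17, adjusted p = 0.00103), while its difference from cytokines alone was 0.30 ± 0.17 (adjusted p = 0.254), which passed with the islet pool as a block (adjusted p = 0.0375).

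With NMMA the low Stx1a signal was at 8.58 and 6.77 CPM. It was 2.29-fold above untreated (1.19 ± 0.22, adjusted p = 0.00412), a call lost without the first untreated library (adjusted p = 0.0527), and 0.37 above cytokines alone on the log2 scale (adjusted p = 0.251). Syt4 was at 260.1 and 287 CPM, above every other β-cell library. It was 1.53-fold above untreated (0.61 ± 0.17, adjusted p = 0.0284), and this call was lost without any 1 of the 4 libraries compared (adjusted p 0.0503 to 0.210) and with hormone genes left out of the scaling (0.42, adjusted p = 0.09). Against cytokines alone Syt4 differed by 0.44 ± 0.17 (adjusted p = 0.0975), which passed with the islet pool as a block (adjusted p = 0.000783). Vamp2, at 79.1 and 72.5 CPM, was 0.30 above cytokines alone on the log2 scale (adjusted p = 0.104), and this too passed with the block (adjusted p = 0.0163). Snap25 was at 92.8 and 91.8 CPM and Syt7 at 148 and 152 CPM, and neither passed a test against untreated or cytokines alone. In all, 3 of the 9 genes were higher with cytokines and NMMA than with cytokines alone, where 10.3% of all genes were higher and 19.2% were called, 0 were lower, where 8.92% of all genes were, and the median log2 difference was 0.37 in the 9 beside 0.01 over all genes. With the pool as a block 6 of 9 were higher, and under both scalings by UMIs 5 were higher. The 10.3% belongs to the main fit, and the share of all genes under these settings is not given here. These counts therefore do not set the 9 genes apart from other genes.

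NMMA alone gave no call of any gene in β-cells by edgeR (0% of 12778), with 932 genes (7.29%) at an unadjusted p under 0.05, and DESeq2 called 14 genes. Of the 9 exocytosis genes 0 were called by either tool, and 1, Rab3a, was under an unadjusted p of 0.05. Rab3a was at 65.6 and 62.3 CPM with NMMA alone, below both untreated libraries (log2 difference -0.32 ± 0.12, adjusted p = 0.632). In α- and δ-cells NMMA alone gave 0 calls by edgeR and by DESeq2, with 364 genes (3.68%) and 285 genes (2.96%) at an unadjusted p under 0.05 and none of the 9 among them.

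The same UMIs also showed the fall as a smaller share of cells with a UMI, pooled over the 2 libraries of a condition. After each cell was thinned to 7000 UMIs, which left out the shallower ones, 43.8% of untreated β-cells had a UMI of Rab3a, 15.3% with cytokines and 21.2% with cytokines and NMMA. For Rab27a the shares were 46.0%, 17.5% and 31.2%, for Cplx2 48.7% untreated and 18.9% with cytokines, and for Syt13 87.5%, 57.8% and 77.4%. By library the Rab3a share ran from 42.1 to 44.3% untreated and from 13.9 to 18.6% with cytokines. Endothelial cells, mesenchymal cells and macrophages were pooled as a background. They held a UMI of Rab3a in 2.90%, of Rab27a in 2.18%, of Cplx2 in 6.17% and of Syt13 in 4.54% of 551 cells at the same depth, so the β-cell shares stayed above the background in each condition. For Cplx2 this background was uneven. Before thinning 16.3% of endothelial and 11.8% of mesenchymal cells had a UMI of it, against 2.78% of macrophages. For Vamp2, which many cell types use, the background was 23.6%, beside 44.1% of untreated β-cells and 31.2% with cytokines.

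Stx1a was the exception. Its share in β-cells was 2.41% untreated, 3.17% with cytokines and 5.23% with cytokines and NMMA, below the 6.90% of the non-endocrine cells pooled. That pooled share is no background for Stx1a, since before thinning it came from 72 of 282 endothelial cells and 16 of 220 mesenchymal cells, while 0 of 324 macrophages had a UMI, which allows a share of up to 0.926%. Of 6351 β-cells 11.4% had one, at a median of 24285 UMIs against 10855.5 in macrophages.

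Nos2 was detected in part of the β-cells treated with cytokines, which made it possible to compare cells within a library. After thinning to 10000 UMIs, 46.6 and 45.8% of β-cells with cytokines and 66.7 and 60.6% with cytokines and NMMA had a Nos2 UMI. Sums of the Nos2-positive and Nos2-negative cells were compared over these 4 libraries with the library as a block. Rab3a and Cplx2 were lower and Stx1a was higher in the positive cells, which is 2 of 9 lower, where 2.12% of 9767 genes were, and 1 higher, where 4.64% were, with 6.76% called in all. The median log2 difference was 0.01 over the 9 and -0.01 over all genes.

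Rab3a was at 26.7 CPM in negative and 15.7 in positive cells of the first cytokine library and at 30.9 and 22.0 in the second, and at 42.4 and 32.5, and 50.2 and 29.1, in the libraries with NMMA. The positive cells were lower in each of the 4 libraries (-0.60 ± 0.12, adjusted p = 0.00246). Cplx2 was at 33.1 CPM in negative and 24.0 in positive cells, and in the other libraries at 50.9 and 28.4, 42.9 and 32.7, and 59.9 and 43.2. It too was lower in the positive cells of all 4 (-0.52 ± 0.11, adjusted p = 0.00381). Stx1a was at 5.4 and 7.3, 2.9 and 6.4, 2.9 and 10.8, and 3.7 and 8.7 CPM in negative and positive cells of the same 4 libraries. It was higher in the positive cells of all 4 (0.99 ± 0.27, adjusted p = 0.023), a call lost without the first library with cytokines and NMMA (0.74, adjusted p = 0.25). Syt13 was at 182 CPM in negative and 128 in positive cells of the first cytokine library and at 178 and 139 in the second, but at 262 and 268, and 273 and 274, with NMMA. The pooled difference of Syt13 was -0.20 (adjusted p = 0.207), and Rab27a, at 0.01 (adjusted p = 0.974), did not follow Rab3a. DESeq2 called 0 of the 9 in this comparison and 266 of all genes, with 5 of the 9 at an unadjusted p under 0.05 by edgeR.

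**Figure D2:**
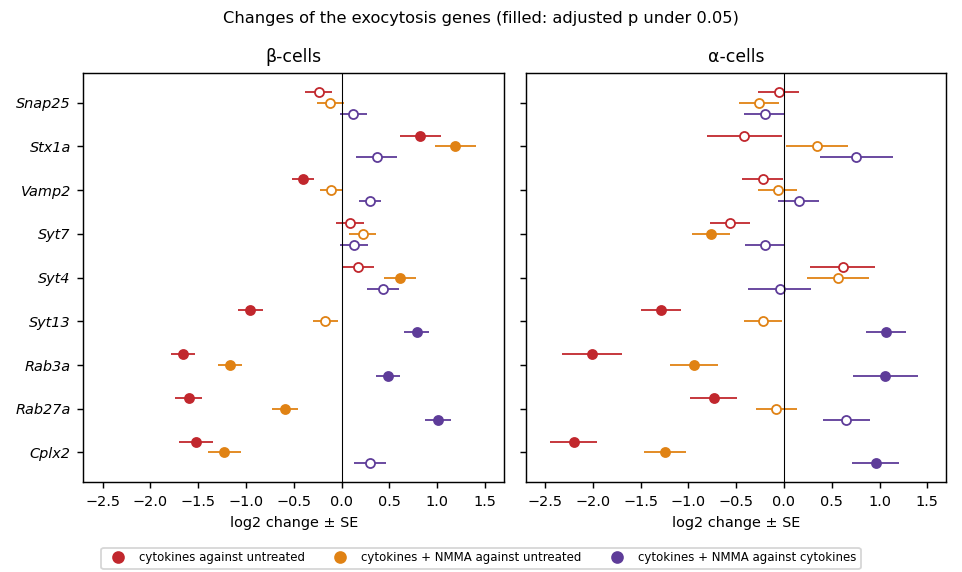
Log2 changes of the 9 exocytosis genes in β-cells (left) and α-cells (right) for cytokines against untreated, cytokines with NMMA against untreated and cytokines with NMMA against cytokines, where bars are ± 1 SE and filled points have an adjusted p under 0.05. In both classes Rab3a, Rab27a, Cplx2 and Syt13 are called lower with cytokines, and Rab3a and Cplx2 are still called lower with NMMA present.

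In α-cells, Cplx2, Rab3a, Syt13 and Rab27a fell with cytokines and none of the 9 genes was called higher. That is 4 of 9 lower, where 9.26% of 9891 genes were lower, 12.9% higher and 22.1% called. The median log2 change was -0.57 in the 9 and -0.04 over all genes. Cplx2 was at 162 and 181 CPM untreated and at 29.4 and 43.3 CPM with cytokines. The groups lay far apart, a fall of 4.60-fold (-2.20 ± 0.24, adjusted p = 4.58e-06). Rab3a was at 44.9 and 52.2 CPM untreated and at 11.8 and 12.2 CPM with cytokines, and fell 4.02-fold (-2.01 ± 0.32, adjusted p = 0.000195) without overlap. Syt13 was at 232 and 196 CPM untreated and at 80.8 and 93.9 CPM with cytokines, and fell 2.44-fold (-1.28 ± 0.21, adjusted p = 0.000268), also without overlap. These 3 calls were kept when any single library was left out. Insulin transcripts (Ins1 and Ins2) in the same α-cell sums were at 10510 and 19223 CPM of total UMIs untreated, 45178 and 50655 CPM with cytokines and 15636 and 55351 CPM with cytokines and NMMA, and the part of this RNA in the α-cell changes was not tested.

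Rab27a was at 49.8 and 64.1 CPM in untreated α-cells and at 32.3 and 35.9 CPM with cytokines. It fell 1.66-fold (-0.73 ± 0.25, adjusted p = 0.0386), but the call was lost when any 1 library was left out other than the first with NMMA alone (adjusted p 0.0505 to 0.280). Syt7 was at 135 and 126 CPM untreated and at 101 and 76.7 CPM with cytokines, without overlap. Its log2 change of -0.57 ± 0.21 did not pass (adjusted p = 0.0592), and it passed with the islet pool as a block (adjusted p = 0.0152) and when total UMIs or UMIs without hormones set the scale (-1.05 and -0.97). Syt4 was at 61.7 and 69.3 CPM untreated and at 110.2 and 92.3 CPM with cytokines. Both cytokine libraries were higher, with a log2 change of 0.61 ± 0.34 that did not pass (adjusted p = 0.226) and passed with the block (adjusted p = 0.0352). Of the SNAREs, Snap25 was at 128 and 134 CPM untreated and at 151 and 104 CPM with cytokines, with overlapping groups. Vamp2 (86.3 and 70.4 CPM against 66.1 and 67.8 CPM) and Stx1a (13.3 and 17.6 CPM against 14.7 and 9.8 CPM) did not pass either, although Vamp2 passed when total UMIs (-0.69, adjusted p = 0.0287) or UMIs without hormones (-0.62, adjusted p = 0.0457) set the scale. Under these scalings the median change of all genes in this comparison moved to -0.50 and -0.43.

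With NMMA added to the cytokines, 3 of the 9 genes remained below untreated α-cells and none was called higher, where 2.23% of all genes were lower, 5.92% higher and 8.16% called, with a median log2 change of -0.21 in the 9 and -0.01 over all genes. Cplx2 was at 59.0 and 85.9 CPM, 2.37-fold below untreated (-1.24 ± 0.22, adjusted p = 0.000768). Rab3a was at 20.2 and 30.2 CPM, 1.93-fold below untreated (-0.95 ± 0.25, adjusted p = 0.0214). Syt7 was at 69.4 and 83.8 CPM, below untreated (-0.77 ± 0.20, adjusted p = 0.0202). Syt13, at 166 and 203 CPM, and Rab27a, at 55.2 and 53.2 CPM, did not pass (adjusted p = 0.66 and 0.914). The Rab3a call was lost without either untreated library or the first library with cytokines and NMMA (adjusted p 0.0641 to 0.278), and that of Syt7 without any 1 of the 4 libraries compared (adjusted p 0.0625 to 0.243).

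Against cytokines alone, Syt13, Rab3a and Cplx2 were higher in α-cells with NMMA and none was called lower, 3 of 9 where 5.40% of all genes were higher, 5.81% lower and 11.2% called, with a median of 0.65 in the 9 and 0.04 over all genes. Syt13 was 2.10-fold higher (1.07 ± 0.21, adjusted p = 0.00335), a call kept without any single library. Cplx2 was 1.94-fold higher (0.96 ± 0.25, adjusted p = 0.0172) and lost the call without the first cytokine library or the second with NMMA (adjusted p 0.157 to 0.213). Rab3a was 2.09-fold higher (1.06 ± 0.34, adjusted p = 0.0493) and kept its call only without the first library with cytokines and NMMA, with adjusted p between 0.0607 and 0.317 without each of the other 7. It was also not called when 3 α-cells without a UMI of the glucagon gene Gcg, all in the cytokine libraries, were left out (adjusted p = 0.0558). Rab27a differed by 0.65 (adjusted p = 0.0942), and passed with the islet pool as a block (adjusted p = 0.0461). Shares of cells at 7000 UMIs were again pooled over 2 libraries. Cplx2 went from 63.5% of untreated α-cells to 23 of 115 cells with cytokines and 37.0% with NMMA as well. Syt13 went from 74.7% to 35.7% and 67.1%.

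**Figure D3:**
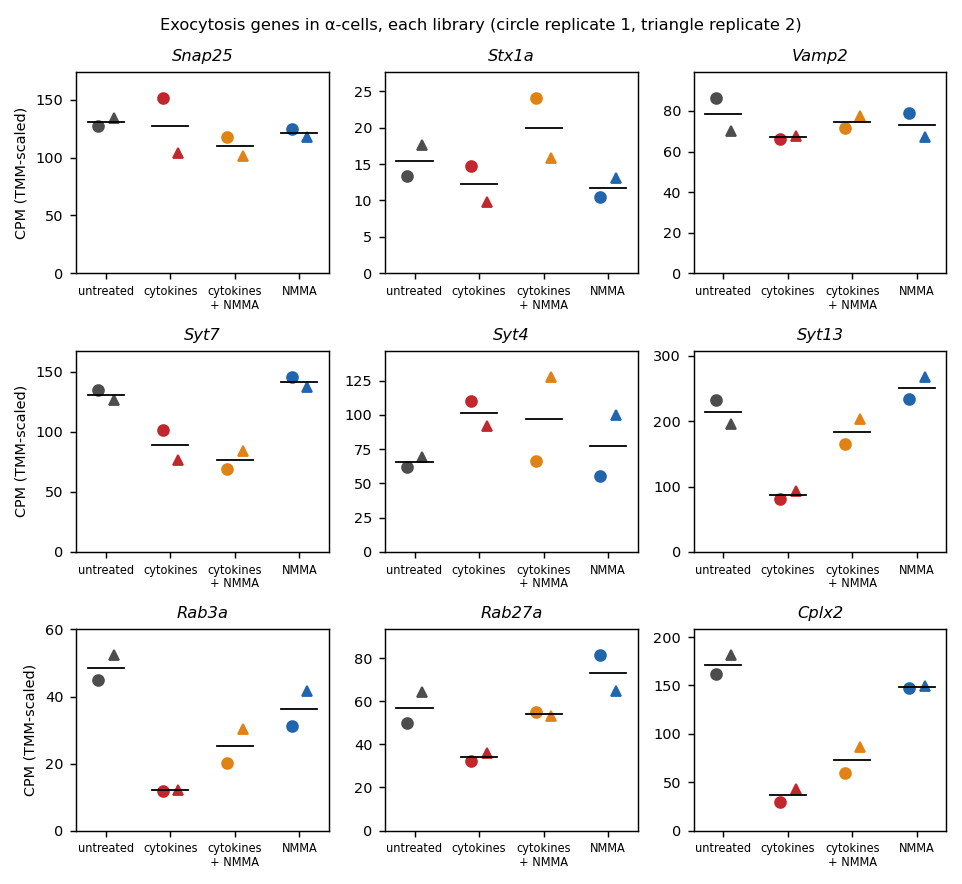
Levels of the 9 exocytosis genes in α-cells, as TMM-scaled CPM on a linear axis from 0, with a circle for replicate 1, a triangle for replicate 2 and a line at the mean of each condition. Cplx2, Rab3a and Syt13 lay lowest in the 2 cytokine libraries, and for Syt13 the libraries with cytokines and NMMA reached 166 and 203 CPM.

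Whether α- and β-cells responded differently was tested as a difference of their changes, cytokines against untreated, with the library as a block. Rab27a was the 1 gene of the 9 called, where 4% of 11857 genes were called, 1.89% higher and 2.11% lower. Its fall was smaller in α-cells, by 0.93 ± 0.26 on the log2 scale (adjusted p = 0.0283). The call was lost without any 1 of the 4 libraries compared (adjusted p 0.0646 to 0.292) and under scaling by total UMIs (0.64, adjusted p = 0.175), and DESeq2 called 0 of the 9 and 222 of all genes, with 4 of the 9 at an unadjusted p under 0.05 by edgeR. Cplx2 differed by -0.66 (adjusted p = 0.0956) and Syt7 by -0.61 (adjusted p = 0.075), and both were called under the scalings by total UMIs and by UMIs without hormones. Rab3a differed by -0.32 (adjusted p = 0.697) and Syt13 by -0.27 (adjusted p = 0.524), which does not show that they responded alike. In the same test of δ- against β-cells, where 1 library of 12 δ-cells stands for cytokines and the spread comes from the other sums, 3 of the 9 genes were called, Snap25, Rab3a and Vamp2, all with a higher change in δ-cells, where 2.77% of all genes were called, 1.43% higher and 1.34% lower. All 3 calls were lost without the δ-cells that lack Sst, where the differences were -0.69, 0.82 and -0.28.

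In δ-cells the cytokine values rest on the 1 library of 12 cells, so that the spread in these tests comes from the other conditions alone. With all 12 cells, Syt13 and Rab27a were lower and Snap25 was higher than untreated, 3 of 9 where 5.83% of 9620 genes were called, 1.78% lower and 4.05% higher. The median log2 change of the 9 was 0.43, beside -0.08 over all genes. Without the cells that lack Sst, 0 of the 9 genes were called by edgeR, where 3.63% of 9379 genes were, and 6 of the 9 and 1505 of all genes were at an unadjusted p under 0.05. The medians were then -0.83 in the 9 and -0.13 over all genes. When the library of 6 δ-cells was also admitted, which gives 16 Sst-positive cells over both cytokine libraries, 3 of the 9 genes were lower and none higher, where 6.76% of 8570 genes were called. Snap25 was at 126 and 120.1 CPM untreated and at 437 CPM with cytokines (1.82 ± 0.27, adjusted p = 0.000124), but 83 of its 92 UMIs in that library stood in the 2 cells without Sst, and without these cells it was at 56.0 CPM, below untreated (-1.13, adjusted p = 0.171). Vamp2, at 131 and 127 CPM untreated and 200 CPM with cytokines, stood at 80.8 CPM when those cells were left out, which took its log2 change from 0.63 to -0.67. Rab3a, at 72.1 and 84.8 CPM untreated and 105 CPM with cytokines, stood at 43.5 CPM without them, from 0.43 to -0.83 on the log2 scale. Neither gene passed the test.

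For Syt13, Rab27a and Cplx2 the direction did not turn on those cells. Syt13 was at 327 and 283 CPM untreated and at 124 CPM with cytokines (-1.30 ± 0.31, adjusted p = 0.011), and at 155 CPM and a change of -0.97 (adjusted p = 0.0952) without the cells that lack Sst. Rab27a was at 97.2 and 111 CPM untreated and at 28.5 CPM with cytokines (-1.85 ± 0.45, adjusted p = 0.0143), and at 37.3 CPM and a change of -1.46 (adjusted p = 0.0934) without them. Cplx2, at 206 and 201 CPM untreated and 95.1 CPM with cytokines, differed by -1.10 (adjusted p = 0.123) with all cells and by the same value (adjusted p = 0.182) at 93.3 CPM without them, and passed with the islet pool as a block and all cells (adjusted p = 0.0121). Leaving out the first untreated library also ended the call of Syt13 (adjusted p = 0.121), and leaving out either untreated library that of Rab27a (adjusted p 0.0526 to 0.0537). Over the 16 Sst-positive cells of both cytokine libraries, Rab27a changed by -1.62 (adjusted p = 0.0114), Cplx2 by -1.24 (adjusted p = 0.0328) and Syt13 by -0.85 (adjusted p = 0.0476), while Snap25 was at -0.79 (adjusted p = 0.199).

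**Figure D4:**
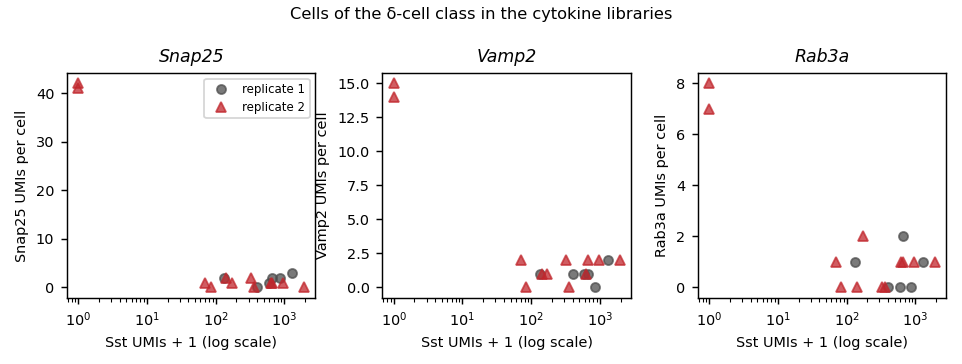
UMIs of Snap25, Vamp2 and Rab3a per cell (vertical, linear) against Sst UMIs plus 1 (horizontal, log scale) in the 18 cells of the δ-cell class in the cytokine libraries, circles for replicate 1 and triangles for replicate 2. The 2 cells with 0 Sst UMIs hold 41 and 42 Snap25 UMIs, and the other cells hold 0 to 3.

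δ-cells with cytokines and NMMA were 59 and 36 per library, and none lacked Sst. Cplx2 was at 62.8 and 124 CPM, below both untreated libraries, and fell 2.21-fold (-1.14 ± 0.26, adjusted p = 0.00776), which made 1 of the 9 genes called, where 8.79% of all genes were, 2.68% lower and 6.11% higher, and the medians were -0.49 in the 9 and -0.03 over all genes. That call was lost without either untreated library or the first with cytokines and NMMA (adjusted p 0.0557 to 0.168). Rab27a was at 61.7 and 73.0 CPM, below both untreated libraries, by -0.63 (adjusted p = 0.105), and passed with the islet pool as a block (adjusted p = 0.0231). Rab3a was at 55.2 and 44.1 CPM, also below both, by -0.64 (adjusted p = 0.136). Syt13 was at 271 and 291 CPM, which overlapped with untreated (-0.12, adjusted p = 0.818). Against the 1 cytokine library, whose spread is again taken from the other conditions, 3 of 9 genes were called, where 2.64% of all genes were, 1.55% lower and 1.09% higher. These were Snap25 (-2.28 ± 0.27, adjusted p = 2.74e-05) and Syt4 (-1.23 ± 0.31, adjusted p = 0.0355) lower and Syt13 (1.18 ± 0.31, adjusted p = 0.0402) higher. Without the cells that lack Sst 0 of the 9 were called by edgeR, where 0.0746% of 9379 genes were (1 of the 9 and 841 of all genes at an unadjusted p under 0.05), and Snap25 was at 0.67 (adjusted p = 0.669), Syt4 at -0.74 (adjusted p = 0.561) and Syt13 at 0.84 (adjusted p = 0.379). The calls of Syt4 and Syt13 were also lost without either untreated library or either library with cytokines and NMMA, and that of Syt13 without the first with NMMA alone (adjusted p 0.0515 to 0.188 over both genes).

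The untreated libraries show how the machinery differs between resting endocrine classes, here with all 3 classes scaled together, so that levels are not those given within a class. Relative to β-cells, α-cells had lower Syt4, Rab3a, Rab27a, Syt13, Vamp2 and Syt7 and higher Stx1a and Cplx2. That is 6 of 9 lower, where 16.4% of 11857 genes were lower, and 2 higher, where 14.4% were higher, with 30.7% called and medians of -0.48 in the 9 and 0.01 over all genes. Under scaling by total UMIs the median of all genes moved to 0.51, Snap25 was higher in α-cells (0.49, adjusted p = 0.00609) in place of -0.02, and the differences of Vamp2 (0.016) and Syt7 (0.11) turned sign and were not called. Leaving hormone genes out of the total moved the median to 0.02 and turned none of the called genes.

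Syt4 was at 209 and 251 CPM in β-cells, 59.6 and 66.6 CPM in α-cells and 86.7 and 77.2 CPM in δ-cells. β-cells were highest in both replicates, 3.63-fold above α-cells (-1.86 ± 0.20 for α against β, adjusted p = 9.49e-08) and 2.75-fold above δ-cells (-1.46 ± 0.20, adjusted p = 9e-06). Syt13 was at 403 and 389 CPM in β-cells, 224 and 188 CPM in α-cells and 257 and 221 CPM in δ-cells, with β-cells again on top (adjusted p = 8.69e-08 against α-cells). Rab3a was at 109 and 94.8 CPM in β-cells, 43.4 and 50.2 CPM in α-cells and 56.7 and 66.2 CPM in δ-cells (adjusted p = 1.26e-07 and 0.000584 for α and δ against β, the latter 0.267 without the first untreated library). Rab27a was at 111 and 110.4 CPM in β-cells, 76.4 and 86.9 CPM in δ-cells and 48.1 and 61.6 CPM in α-cells. Its 3 classes did not overlap and followed this order, with each step called (adjusted p = 0.0277 for δ against β and 0.0406 for δ against α), although both of these calls were lost without either untreated library (adjusted p 0.0509 to 0.502, also without the second with cytokines and NMMA for δ against α) and δ-cells were above β-cells by 0.16 (adjusted p = 0.487) under scaling by total UMIs.

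Stx1a had the opposite order, with 4.0 and 4.7 CPM in β-cells, 12.9 and 16.9 CPM in α-cells and 11.8 and 15.2 CPM in δ-cells. α-cells lay 3.40-fold (1.77 ± 0.30, adjusted p = 4.39e-06) and δ-cells 3.06-fold (1.62 ± 0.38, adjusted p = 0.000787) above β-cells, under each scaling, while α- and δ-cells did not differ beyond their spread (adjusted p = 0.894). The δ-cell call was lost without the first untreated library (adjusted p = 0.0603). Cplx2 was at 156 and 174 CPM in α-cells, 162 and 157 CPM in δ-cells and 124 and 130.5 CPM in β-cells. It was 1.30-fold higher in α- than in β-cells (0.38 ± 0.13, adjusted p = 0.0232), a call lost without either untreated library (adjusted p 0.142 to 0.296), and higher by 0.33 in δ-cells (adjusted p = 0.0776), which passed under both scalings by UMIs.

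Of the remaining genes, Snap25 was at 136 and 121 CPM in β-cells, 123 and 129 CPM in α-cells and 99.3 and 93.8 CPM in δ-cells, lowest in δ-cells (-0.41 ± 0.15 against β-cells, adjusted p = 0.0408). That call was lost without either untreated library or the second with cytokines and NMMA (adjusted p 0.0517 to 0.420), and the difference was 0.20 in favour of δ-cells under total UMIs. Vamp2 was at 103 and 107 CPM in β-cells and 103 and 99.3 CPM in δ-cells, with α-cells at 83.3 and 67.6 CPM below both (-0.48 against β-cells, adjusted p = 0.00629, and 0.38 without the second untreated library). Vamp2 in δ-cells differed from β-cells by -0.05 (adjusted p = 0.862), and by 0.56 (adjusted p = 0.00661) under total UMIs. Syt7 was at 169 and 161 CPM in β-cells, 130.1 and 121 CPM in α-cells and 126 and 121 CPM in δ-cells, with β-cells above α-cells (adjusted p = 0.0197) and δ-cells (adjusted p = 0.0272), calls that were lost without either untreated library (adjusted p 0.173 to 0.314), and no call between δ- and α-cells (adjusted p = 0.979). Against β-cells δ-cells thus had 6 of 9 genes lower, where 12.6% of all genes were, and 1 higher, where 11.5% were, with 24.1% called and medians of -0.42 in the 9 and -0.01 over all genes. Between δ- and α-cells Rab27a was the 1 called gene, higher in δ-cells, where 10.2% of all genes were called, 6.11% higher and 4.12% lower. Total UMIs moved the median of δ- against β-cells to 0.61, turned Snap25, Vamp2, Syt7 and Rab27a positive and ended the calls of Syt13 and Rab3a.

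**Figure D5:**
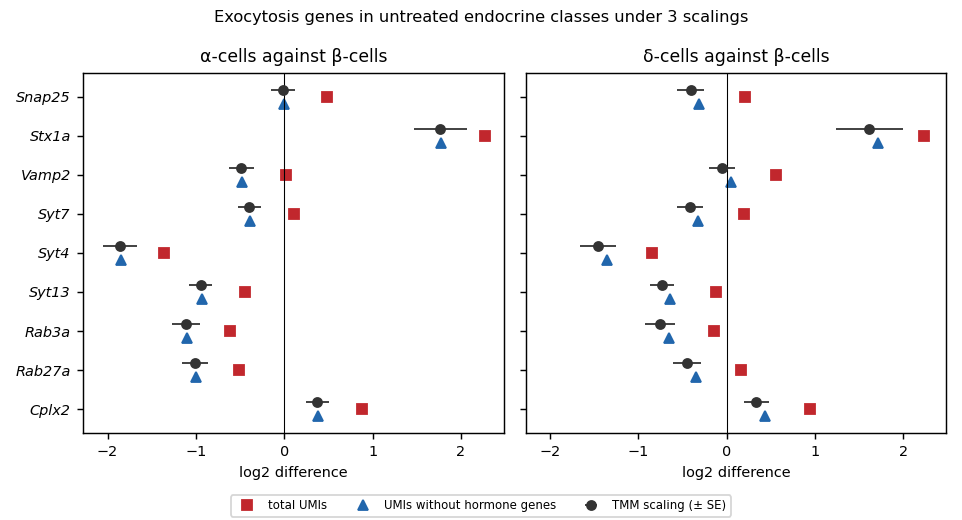
Log2 differences of the 9 exocytosis genes of untreated α-cells (left) and δ-cells (right) from untreated β-cells, with circles and ± 1 SE for TMM scaling, squares for scaling by total UMIs and triangles for UMIs of genes other than hormones. Syt4 lies below 0 and Stx1a above 0 under all 3 scalings, while Snap25, Vamp2 and Syt7, and in δ-cells Rab27a, lie above 0 under total UMIs.

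Another 94 genes of exocytosis, listed by role with earlier results of these data known, set the 9 in context. In β-cells with cytokines 81 were tested, of which 15 rose and 21 fell, with a median of -0.02. Over all genes of this comparison 23.7% were higher and 22.4% lower. Rabs and their effectors had 10 of 23 lower and 4 higher. Sytl4, encoding the granule protein granuphilin, which binds both Rab3a and Rab27a, was at 125 and 141 CPM untreated and at 43.4 and 55.8 CPM with cytokines (-1.43), Rab37 changed by -1.50, the Rab27a effector gene Mlph by -1.28 and Sytl3 by -2.63. Priming and SNARE-binding factors had 7 of 23 lower and 2 higher, led by the priming factor gene Cadps (81.8 and 78.6 CPM untreated, 21.6 and 21.6 CPM with cytokines, -1.89) and the active-zone gene Rimbp2 (-1.77). Pclo, which encodes piccolo, changed by -1.22 and Baiap3 by -1.44. Among calcium sensors 3 of 11 were lower (Syt3 -2.90, Syt5 -1.01, Syt14 -0.48) and 2 higher, including Syt9 at 1.03.

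Of the other SNARE genes 6 of 15 were higher and 1 lower. Vamp8, a SNARE of endosomes and of granules in several cell types, was at 101 and 118 CPM untreated and at 202 and 190.5 CPM with cytokines (0.85). Stx2 (1.10), Stx3 (0.86) and Snap29 (0.80) rose as well. The exocyst, a tethering complex, had 1 of 9 higher (Exoc3, 0.48) and 0 lower by edgeR. With cytokines and NMMA, 8 of the 81 were higher and 13 lower than untreated, beside 12.9% and 9.74% of all genes, among the latter Sytl4 (-1.66), Cadps (-1.67), Baiap3 (-1.49), Rab37 (-1.40) and Syt3 (-1.84). Against cytokines alone 3 were higher, Rimbp2 (0.99), Sytl3 (1.85) and Syt16 (1.98), and 5 lower, among them Rab3b (-1.16) and Exoc3 (-0.56), beside 10.3% and 8.92% of all genes. In α-cells with cytokines 5 of 68 were higher and 9 lower, beside 12.9% and 9.26% of all genes. Between untreated classes, Sytl4 was at 161 and 180 CPM in β-cells, 0.677 and 5.96 CPM in α-cells and 1.58 and 2.76 CPM in δ-cells, Rab3c at 38.6 and 31.8 CPM in α-cells against 1.4 and 1.93 CPM in β-cells, and Syt1 at 42.5 and 44.1 CPM in δ-cells against 0.358 and 0.309 CPM in β-cells.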

How the data were processed

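Raw UMI counts by gene and barcode, as the authors deposited them, were read from 1 matrix per library (8 in all). The submitters' processing notes name Cell Ranger 3.0.0 and 6.0.0 and mm10. The 9 genes and the wider list of 94 were chosen with earlier results of these data known. Genes shared by both gene lists (30406) were used. Barcodes with at least 200 genes, at most 5500 (replicate 1) or 6500 (replicate 2) genes and at most 10% mitochondrial UMIs were kept, as in the study. Cells were clustered with scanpy 1.11.5 and leidenalg 0.10.2 (2000 variable genes, 30 components, 20 neighbours, resolution 1) and named from marker genes. Called doublets (99, 0.91%) were kept. Libraries shared 0 to 5 barcodes per pair.

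Counts were summed per class and library with at least 10 cells and edgeR 4.0.16 under R 4.3.3 tested the sums by robust quasi-likelihood F test after filterByExpr and TMM scaling (Benjamini-Hochberg, threshold 0.05). All conditions of a class shared 1 fit, and DESeq2 1.42.0 was an alternative. CPM values were computed from the same sums. Class comparisons, response differences and the Nos2 split were blocked by library. Cells with a UMI were counted after thinning to 7000 UMIs, and intervals and limits of a count of 0 (3 counts) cover counting error only. Tested on simulated data with 2-fold changes, the procedure recovered 34.5% of 197 changed genes in β-cells with cytokines (12496 genes). It recovered 17.6% of 193 in α-cells (9607) and 1.08% of 186 in δ-cells (9091). For untreated α- against β-cells it recovered 67.8% of 180 (10265), and for the Nos2 split 90.4% of 198 (9447). An uncalled gene may therefore have changed. In the measured β-cells with cytokines 46.1% of 12778 genes were called, and recovery at such a share of changed genes was not tested. Genes of the wider list are named where called in the same direction in both replicates, at most 4 per role and comparison by adjusted p, in β-cells and between untreated classes.

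The replicate number marks a shared islet pool and also a gene list, with 31053 genes in the libraries of replicate 1 and 32285 in those of replicate 2. Pool and counting cannot be told apart, also where the islet pool is named as a block. Deviations from the condition mean correlated between conditions of a replicate with r of 0.656 to 0.751 in β-cells (6 pairs of conditions), 0.254 to 0.44 in α-cells (6) and 0.309 to 0.315 in δ-cells (3). Alternatives were other scalings, no filter, DESeq2, leaving out each library, the pool as a block, another minimum of cells, doublets removed and typing by hormone. Leaving out cells without their hormone UMI, alone or with a minimum of 5 cells, and scaling without hormone genes were chosen after seeing the data.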

Additional observations from a re-analysis of the deposited data

Results flagged for a closer look

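The change with cytokines was called different between classes for 4 gene results. Each was tested as an interaction with edgeR and Benjamini-Hochberg adjustment over 11857 genes. Rab27a fell less in α- than in β-cells, by 0.93 on the log2 scale (adjusted p = 0.0283). It was 1 of 9 genes called, where 4% of all genes were called and 1.89% were higher. Its call was lost without any 1 of the 4 libraries compared (adjusted p 0.0646 to 0.292) and under scaling by total UMIs. DESeq2 called 0 of the 9 in this comparison. Snap25 was higher by 2.30 (adjusted p = 2.07e-08), Rab3a by 2.09 (adjusted p = 0.0015) and Vamp2 by 1.03 (adjusted p = 0.049) in the change of δ-cells than of β-cells, which is 3 of 9 genes where 1.43% of all genes were higher and 2.77% called. All 3 rest on the 1 cytokine library of 12 δ-cells, which is assumed to vary as the other sums do. Without the cells that lack Sst the difference was -0.69 for Snap25 (adjusted p = 0.598), 0.82 for Rab3a (adjusted p = 0.652) and -0.28 for Vamp2 (adjusted p = 0.832), and 0 of the 9 were called by edgeR. Vamp2 also lost its call without either untreated library or either library with cytokines and NMMA (adjusted p 0.0583 to 0.139).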

How the results depend on the processing

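In β-cells with cytokines 6 or 7 of the 9 genes were called under each setting other than leaving out 1 library, where the range was 4 to 6. The counts of this section have no share of all genes under the same setting beside them. They describe how the calls of the 9 genes moved and do not set these genes apart. Leaving out 1 library gave 2 to 5 of the 9 for β-cells with cytokines and NMMA against untreated and 2 to 3 against cytokines, 1 to 3 for both of these comparisons in α-cells, 1 to 3 for δ-cells with cytokines, 0 to 1 for δ-cells with cytokines and NMMA against untreated and 1 to 3 against cytokines. It gave 5 to 8 for α- against β-cells, 2 to 7 for δ- against β-cells, 0 to 1 for δ- against α-cells, 0 to 2 for the α-cell response difference, 2 to 3 for that of δ-cells and 2 to 4 for the Nos2 split. In β-cells with cytokines and NMMA against cytokines, 5 genes were called under total UMIs, 5 without hormone genes in the scaling and 6 with the islet pool as a replicate block. In α-cells the same comparison had 5 under total UMIs and 1 by DESeq2, and DESeq2 called 1 against untreated. With δ-cells, DESeq2 called 1 with cytokines, 0 with cytokines and NMMA against untreated and 1 against cytokines, the pool as a block called 2 against untreated, no filter called 5 with cytokines, a minimum of 5 cells called 0 against cytokines, also with cells lacking Sst left out, and leaving out these cells alone called 0 with cytokines and 0 against cytokines. DESeq2 called 5 for α- against β-cells and 4 for δ- against β-cells, where total UMIs also called 4. For δ- against α-cells 2 were called without hormone genes in the scaling, 0 without a filter and 0 by DESeq2. The α-cell response difference had 3 under total UMIs, 3 without hormone genes, 2 without a filter, 0 by DESeq2 and 2 with typing by hormone, and that of δ-cells had 0 without cells lacking their hormone. DESeq2 called 0 in the Nos2 split. Directions turned under total UMIs for untreated α- against β-cells in Snap25 (0.49), Vamp2 (0.016) and Syt7 (0.11), and for δ- against β-cells in Snap25 (0.20), Vamp2 (0.56), Syt7 (0.19) and Rab27a (0.16). Without cells lacking Sst they turned for Snap25 in δ-cells (-1.13 with cytokines and 0.67 for NMMA against cytokines, or -0.79 and 0.33 with a minimum of 5 cells) and, among values not called, for Vamp2 (-0.67) and Rab3a (-0.83) with cytokines and (0.49 and 0.19) for NMMA against cytokines, and for the response differences of Snap25 (-0.69) and Vamp2 (-0.28). The cause of these moves was not tested. The replicate block kept all 31 called gene results it could be applied to and newly called 9. It could not be applied to class comparisons, response differences and the Nos2 split, which have the library as a block. Typing by hormone left no δ-cell comparison with cytokines. Thinned shares lay lower in both cytokine libraries than in both untreated ones for 20 of 27 genes and classes, and 16 before thinning. No such count was made over all genes, so these counts do not set the 9 genes apart. The δ-cell part, 5 of 9 after thinning and 2 before, rests on cytokine libraries of 6 and 12 cells, with the cells that lack Sst included. Limits are the 2 pools, the small α- and δ-cell sums, and low counts of Stx1a.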

Other observations

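Outside the endocrine classes most of the 9 genes gave few UMIs. Snap25 had a UMI in 3 of 282 endothelial cells and 7 of 324 macrophages, and Rab27a in 6 and 13. Vamp2 was broader, with a UMI in 38.7% of endothelial cells, 36.4% of mesenchymal cells and 23.1% of macrophages. Stx1a stood at 23.4 CPM of total UMIs in endothelial cells, above its 5.03 CPM in β-cells, and Cplx2 had a UMI in 16.3% of endothelial cells against 2.78% of macrophages, at median depths of 11726 and 10855.5 UMIs. Insulin transcripts were at 1949 to 4276 CPM in the endothelial sums and at 1902 to 48835 CPM in those of macrophages.

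Over the 23 sums of β-, α- and δ-cells per library with enough cells, which share libraries and differ in depth, the gene whose log2 CPM followed Rab27a most closely was Abcd3 (Pearson r = 0.94). For Syt13 it was Atp8b1 (0.93), followed by Abcd3 (0.92), for Cplx2 Dhdh (0.93) and for Rab3a Dusp23 (0.91). Syt4 was most like Gpr158 (0.93), Syt7 like Deptor (0.90), Stx1a like Uchl1 (0.85) and Vamp2 like Phactr3 (0.85), with the cells of the δ-cell class that lack Sst included. Without α- and δ-cells that have no UMI of their hormone gene, r was 0.76 for Stx1a and Uchl1, 0.53 for Vamp2 and Phactr3 and 0.85 for Rab3a and Dusp23, and Plxnd1, the gene most like Snap25 (0.84) with all cells, was no longer among the genes tested. Within the 9 genes Syt13 and Rab27a had the highest r (0.87) and Stx1a and Syt7 the lowest (-0.78). Without those cells Syt13 and Rab3a had the highest r (0.88, beside 0.71 with all cells). Syt13 and Rab27a then stood at 0.86, and Stx1a and Syt7 were again lowest (-0.76). These values describe the sums and are not tests.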
